A study of Mus musculus with 6 samples.

Results

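The interleukin-1 (IL-1) family was followed here as 10 genes picked by symbol, namely the agonists Il1a, Il1b and Il33, the receptor chains Il1r1, Il1rap, Il1rl1 and Il18rap, the antagonist Il1rn, the decoy receptor Il1r2 and the soluble binding protein Il18bp. All 10 were among the 21720 symbols of the table and all 10 passed the filter on low counts, as did 14963 symbols in all. The genes were chosen by name, with earlier results of these data known, and not by a threshold on their values.

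RNA was sequenced from tumours that H22 cells, a hepatocellular carcinoma line of the mouse, formed under the skin of wild-type female BALB/c mice aged 6 to 8 weeks. Control mice received 0.5% carboxymethyl cellulose sodium and treated mice received luteolin, a flavonoid of many edible plants, at 200 mg/kg. Both were given by gavage in 0.2 mL every day for 21 days, starting at a tumour volume of about 50 mm3. Each group gave 3 libraries, whose totals ranged from 61081637 to 80442954 estimated counts. The tumour lay outside the liver, and since the line and the host are both mouse, transcripts of the cancer cells and of the host could not be told apart by species. The labels did not say whether each library came from 1 mouse. P-values therefore measure the spread between libraries only.

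Summed markers of the labelled cell type overlapped between the groups. Summed over 8 hepatocyte and hepatoma markers, the level was between 45.9 and 134 counts per 1000000 (CPM) in control libraries and between 77.0 and 189 CPM in luteolin libraries, and Hnf4a was too low to be tested. Afp, the fetal counterpart of albumin that many hepatomas express, was at 56.5 ± 11.9 CPM in control and 37.7 ± 4.67 CPM in luteolin libraries (SD, n = 3 each). Every luteolin library lay below every control library for Afp and above for Gpc3, beside 12.8% and 15.9% of tested genes. The log2 fold change of Afp, -0.58, fell short of a 2-fold change. Luteolin replicate 2 stood apart by its keratins. The sum of 10 keratinocyte markers was between 3.92 and 4.77 CPM in controls, 392 CPM in luteolin replicate 1, 9254 CPM in luteolin replicate 2 and 16.4 CPM in luteolin replicate 3. The fold changes of the members, and those of some other named genes, are therefore also given without it. A gene given with 1 value only may have moved too. Without this library the log2 fold change of Csf3r went from 2.25 to 1.71, and that of Ptgs2 from 2.68 to 2.98.

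IL-1 alpha and IL-1 beta are inflammatory cytokines that act through the IL-1 receptor Il1r1, which signals only once it is joined by the accessory chain Il1rap. IL-33 is a nuclear alarmin that is released from damaged stromal and epithelial cells and acts through Il1rl1, also called ST2, again with Il1rap, and IL-18 uses a receptor of its own built from Il18r1 and Il18rap. The family is held in check at each step, by an antagonist that occupies Il1r1 (Il1rn), by a decoy that binds IL-1 without signalling (Il1r2) and by a soluble protein that captures IL-18 (Il18bp).

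The sequences ahead of the transcription starts are shown for the agonists and the ST2 gene, whose transcripts rose, and for the shared chain Il1rap, whose transcript did not pass the test. They are 250 bases ending just before a RefSeq start on GRCm38.p6, written 5′ to 3′ on the strand of the gene. Il1a lies at chr2:129309973-129310222 and Il1b at chr2:129371140-129371389, both on the minus strand. The inner start of Il33 lies at chr19:29945540-29945789, the outer and inner starts of Il1rl1 at chr1:40429320-40429569 and chr1:40439379-40439628, and Il1rap at chr16:26581455-26581704, all on the plus strand. Capitals mark a TATA box (TATAAA), an AP-1 site (TGANTCA) or a C/EBP site (TTGCNNAA).
Il1a: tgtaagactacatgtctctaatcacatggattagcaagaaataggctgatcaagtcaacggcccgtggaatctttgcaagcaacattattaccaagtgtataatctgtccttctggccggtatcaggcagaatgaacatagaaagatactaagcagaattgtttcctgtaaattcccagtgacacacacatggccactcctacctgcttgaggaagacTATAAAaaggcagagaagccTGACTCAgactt
Il1b: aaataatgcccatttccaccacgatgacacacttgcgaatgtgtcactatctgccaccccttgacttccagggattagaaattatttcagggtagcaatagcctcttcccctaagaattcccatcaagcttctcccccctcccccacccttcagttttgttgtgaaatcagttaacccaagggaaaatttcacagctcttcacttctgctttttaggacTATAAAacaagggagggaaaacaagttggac
Il33, inner start: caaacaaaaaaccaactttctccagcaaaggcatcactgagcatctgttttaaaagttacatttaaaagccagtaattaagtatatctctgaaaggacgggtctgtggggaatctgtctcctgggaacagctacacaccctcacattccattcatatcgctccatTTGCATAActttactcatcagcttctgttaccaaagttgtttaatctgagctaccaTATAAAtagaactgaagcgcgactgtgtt
Il1rl1, outer start: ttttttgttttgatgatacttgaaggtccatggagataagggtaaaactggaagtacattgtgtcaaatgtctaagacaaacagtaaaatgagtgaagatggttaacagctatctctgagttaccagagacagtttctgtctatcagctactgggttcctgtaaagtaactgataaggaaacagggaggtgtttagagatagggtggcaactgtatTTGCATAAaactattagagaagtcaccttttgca
Il1rl1, inner start: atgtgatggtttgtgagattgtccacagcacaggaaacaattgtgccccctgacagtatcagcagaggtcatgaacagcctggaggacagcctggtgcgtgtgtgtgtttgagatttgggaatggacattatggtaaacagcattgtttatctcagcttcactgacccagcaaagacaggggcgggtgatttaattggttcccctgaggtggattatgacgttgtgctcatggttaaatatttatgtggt
Il1rap: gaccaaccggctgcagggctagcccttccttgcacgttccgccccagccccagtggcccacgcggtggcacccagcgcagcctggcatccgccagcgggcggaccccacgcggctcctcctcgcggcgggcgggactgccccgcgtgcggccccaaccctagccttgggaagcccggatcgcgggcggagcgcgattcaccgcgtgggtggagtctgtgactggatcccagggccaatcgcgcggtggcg

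Il1a and Il1b both had a TATA box close to the start, 32 to 27 and 31 to 26 bases ahead of it, and the inner start of Il33 had one 29 to 24 bases ahead. This motif was in 12.4% of the 32851 windows of all genes, searched on both strands. Il1a also held the AP-1 letters 12 to 6 bases ahead of the start, a motif of 6.75% of windows. C/EBP letters, found in 9.56% of windows, stood 85 to 78 bases ahead of the inner Il33 start and 34 to 27 bases ahead of the outer Il1rl1 start. The Il1rap window held none of the 5 motifs searched and had 74.4% G and C, against a median of 52.4% over all windows and a range of 37.6% to 60.4% over the other 14 windows of the family. None of the motifs overlapped another in these windows. Outside the printed sequences, Il1rn had an AP-1 match ahead of its outermost start, Il1r1 had a C/EBP match at 1 start and a kappaB match (7.25% of windows) at the other, and Il18bp had a C/EBP match. The outer Il33 start had a TATA match 203 to 198 bases ahead. The inner Il1rl1 start printed above, the other starts of Il1rn, and the Il1r2 and Il18rap windows had none of the motifs, and the interferon-response half-site pair, in 2.98% of windows, was in none of the 15. A match is a match of letters and not a measured site. The deposited values were per gene and do not tell which start was used.

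Transcripts of 8 of the 10 genes were up-regulated in luteolin tumours and none was down-regulated, at the threshold of the study (an unadjusted p under 0.05 and a fold change over 2). The same threshold called 11.3% of all tested genes higher and 1.52% lower. The median log2 fold change of the family was 2.14, and over all tested genes it was -0.01. With Benjamini-Hochberg adjustment over all genes, 3 of the 10 (Il1b, Il1rl1 and Il1rn) had an adjusted p under 0.05 in edgeR's quasi-likelihood test, a rule that called 1.34% of tested genes higher and 0.187% lower. Every luteolin library lay above every control library for 9 of the 10, as was the case for 15.9% of tested genes, while 12.8% lay wholly below. Without luteolin replicate 2 the threshold of the study again called 8 members, against 7.52% of tested genes, and their median log2 fold change was 2.10.

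**Figure D1:**
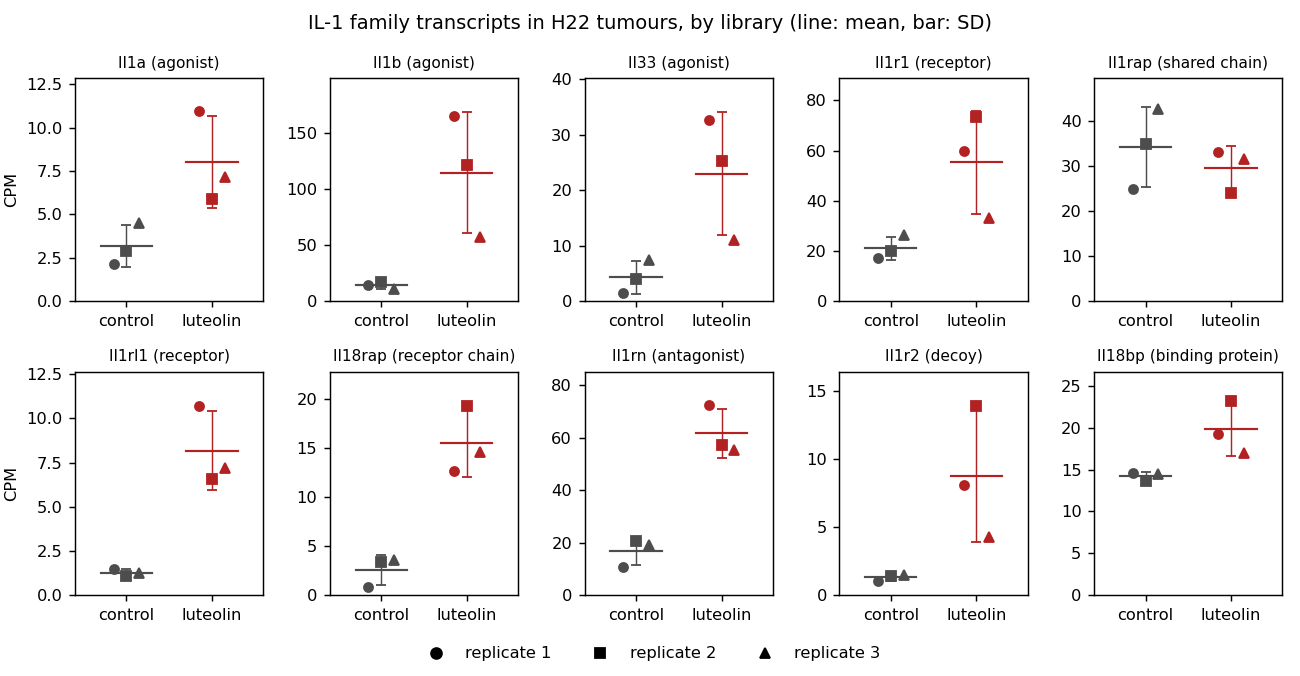
CPM (vertical axis, from 0, a separate scale per panel) of the 10 genes in each control (grey) and luteolin (red) library, with the group mean as a line and the SD as a bar. All panels but that of Il1rap show the 3 luteolin points above the 3 control points, with the widest gap relative to level in Il1rl1 and the narrowest in Il18bp.

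The adjusted calls depended on which libraries were kept. Without luteolin replicate 2 edgeR gave 4 members an adjusted p under 0.05 (Il1b, Il1rl1, Il1rn and Il1r2), against 1.82% of tested genes. Without luteolin replicate 3 it gave 3 (Il1b, Il1r1 and Il1r2), against 0.993%, and Il1rl1 and Il1rn were no longer among them. When a single control, or luteolin replicate 1, was dropped, edgeR gave 0 genes of the whole table an adjusted p under 0.05, and between 1907 and 2462 genes reached an unadjusted p under 0.05. On all 6 libraries DESeq2 gave 8 members an adjusted p under 0.05. By this rule it called higher 8.67% of the 17790 genes it fitted. These had not passed the filter on low counts used for edgeR, and any gene without an adjusted p counted as not called. The share is therefore not on the same base as those of edgeR and voom. With sample quality weights, voom of limma gave 9 members and 12.6% of tested genes. At the threshold of the study only Il1a was lost, without control replicate 1 (log2 fold change 1.10), control replicate 2 (1.26) or luteolin replicate 1 (1.03), and 7 members remained called each time.

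Among the agonists, Il1b had the largest fold change of the family. Its level was 14.5, 16.8 and 11.1 CPM in control replicates 1, 2 and 3 and 165, 122 and 57.5 CPM in luteolin replicates 1, 2 and 3. The groups were far apart, since the lowest luteolin library was 3.41-fold above the highest control library, although the luteolin libraries spread widely among themselves. The means were 14.2 ± 2.87 and 115 ± 54.1 CPM (SD, n = 3 each), an 8.10-fold ratio. On the log2 scale the fold change was 3.02 (SE 0.41, 95% interval 2.06 to 3.98), with an adjusted p of 0.0331 in edgeR's quasi-likelihood test. It was 2.99 without luteolin replicate 2.

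Il1a, the agonist that is active without cleavage and can remain cell-bound, moved less. Control libraries had 2.18, 2.90 and 4.51 CPM and luteolin libraries 10.95, 5.86 and 7.18 CPM. The groups did not overlap, but luteolin replicate 2 was only 1.30-fold above control replicate 3. In the fit, Il1a had a log2 fold change of 1.32 (SE 0.42, 95% interval 0.34 to 2.31) and an adjusted p of 0.153 in edgeR's quasi-likelihood test. It was 1.52 without luteolin replicate 2. Exons of Il1a share 222 of 1974 bases (11.2%) with Gm14023 on the opposite strand in GENCODE M21. For Il1b the overlap with the antisense gene Il1bos was 25 bases (1.31%). Whether reads were counted by strand is not stated in the sources used here, so such reads could not be told apart.

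Il33 was low and uneven in controls, at 1.50, 3.97 and 7.47 CPM, and reached 32.8, 25.3 and 11.0 CPM in luteolin libraries. Luteolin replicate 3 was the lowest of its group and lay 1.47-fold above control replicate 3, the highest of the controls. The log2 fold change of 2.41 therefore had a wide 95% interval, 0.87 to 3.96 (SE 0.65), and the adjusted p was 0.115 in edgeR's quasi-likelihood test. The log2 fold change of Il33 was 2.36 without luteolin replicate 2. Keratinocytes are a known source of IL-33. Luteolin replicate 1, which had the highest Il33, had a keratinocyte sum of 392 CPM, far above the controls. In luteolin replicate 2 that sum was higher still, at 9254 CPM, with less Il33. The part of keratinocytes in the Il33 difference was not tested.

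Of the receptor chains, Il1rl1 separated the groups most clearly. Control libraries had 1.49, 1.08 and 1.26 CPM and luteolin libraries 10.7, 6.59 and 7.18 CPM, so that the lowest luteolin library was 4.43-fold above the highest control. Its log2 fold change was 2.68 (SE 0.37, 95% interval 1.81 to 3.54), with an adjusted p of 0.0331 in edgeR's quasi-likelihood test, and it was 2.83 without luteolin replicate 2. ST2 is carried by mast cells, group 2 innate lymphoid cells and regulatory T cells, and a shorter transcript of the same gene encodes a soluble form that captures IL-33. The table had a single value for the gene and did not separate these forms.

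Il1r1 is the signalling IL-1 receptor, which fibroblasts and endothelial cells carry abundantly. It had 17.4, 19.9 and 26.3 CPM in control libraries and 59.8, 73.4 and 33.1 CPM in luteolin libraries. All luteolin values were higher, with luteolin replicate 3 only 1.26-fold above control replicate 3. The log2 fold change was 1.39 (SE 0.32, 95% interval 0.62 to 2.15) and the adjusted p was 0.0870 in edgeR's quasi-likelihood test. Without luteolin replicate 2 the log2 fold change was 1.15.

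Il18rap, the signalling chain of the IL-18 receptor on T and natural killer cells, was at 0.801, 3.35 and 3.55 CPM in control libraries and at 12.6, 19.3 and 14.6 CPM in luteolin libraries. Control replicate 1 was well under the other controls, and all luteolin libraries were at least 3.56-fold above the highest control. Its log2 fold change was 2.60 (SE 0.57, 95% interval 1.24 to 3.95), the adjusted p was 0.0807 in edgeR's quasi-likelihood test, and the log2 fold change was 2.43 without luteolin replicate 2.

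Il1rap was the exception. The chain that IL-1 and IL-33 receptors share had 24.9, 34.9 and 42.6 CPM in control libraries and 33.1, 24.0 and 31.6 CPM in luteolin libraries. The groups overlapped in part, since luteolin replicate 2 lay just below all controls while control replicates 2 and 3 lay above all luteolin libraries. The means were 34.1 ± 8.85 and 29.6 ± 4.89 CPM (SD, n = 3 each). The fitted difference on the log2 scale was -0.21 (SE 0.25), and the 95% interval of -0.79 to 0.38 does not include a doubling in either direction. The adjusted p was 0.704 in edgeR's quasi-likelihood test, and the log2 fold change was -0.06 without luteolin replicate 2. In GENCODE M21, 4.86% of its exon bases overlap Gm20319 on the opposite strand.

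Both inhibitors of IL-1 rose. Il1rn was at 10.8, 20.6 and 19.1 CPM in control libraries and at 72.4, 57.2 and 55.3 CPM in luteolin libraries. The luteolin values lay close together, and the lowest of them was 2.68-fold above the highest control. The means were 16.8 ± 5.32 and 61.7 ± 9.36 CPM (SD, n = 3 each). The log2 fold change was 1.87 (SE 0.28, 95% interval 1.21 to 2.54), the smallest SE among the 8 up-regulated members, and the adjusted p was 0.0393 in edgeR's quasi-likelihood test. It was 1.94 when luteolin replicate 2 was left out.

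The decoy receptor Il1r2, which neutrophils and some macrophages carry, was scarce in controls at 1.03, 1.42 and 1.47 CPM and reached 8.10, 13.9 and 4.29 CPM in luteolin libraries. The lowest luteolin library was 2.91-fold above the highest control, and luteolin replicate 2 was the highest. Its log2 fold change was 2.74 (SE 0.51, 95% interval 1.55 to 3.94), with an adjusted p of 0.0550 in edgeR's quasi-likelihood test. Without luteolin replicate 2 it was 2.26, with an adjusted p of 0.0455 in the same edgeR test.

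Il18bp differed least among the members whose groups did not overlap. It had 14.6, 13.7 and 14.4 CPM in control libraries, a tight range, and 19.2, 23.2 and 17.0 CPM in luteolin libraries. All luteolin values were higher, but the ratio of the means was 1.39 and did not reach the threshold. The log2 fold change was 0.48 (SE 0.20, 95% interval -0.01 to 0.96), with an adjusted p of 0.25 in edgeR's quasi-likelihood test, and 0.36 without luteolin replicate 2. Its exons share 80 bases (2.64%) with Numa1 on the opposite strand.

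**Figure D2:**
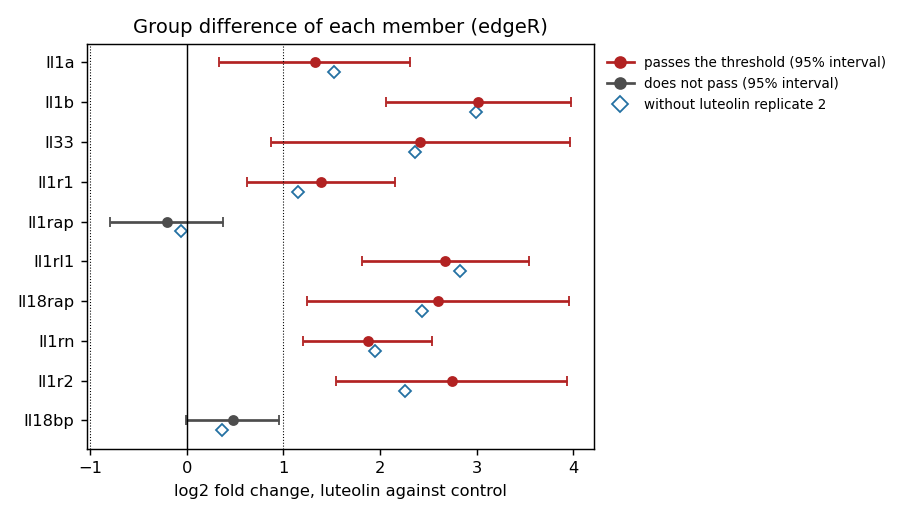
Log2 fold change of each gene, luteolin against control, from edgeR (filled points, red where the threshold of the study was passed) with its 95% interval as a bar, and without luteolin replicate 2 (open diamonds). Dotted lines mark a 2-fold change, and the diamonds of the 8 called genes all stay to the right of the line at 1.

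The order of the transcripts by level was compared per kilobase of the longest GENCODE M21 transcript. In control tumours Il1b led with 10.4 CPM per kb (8.21 to 12.4 over the libraries), followed by Il1rap at 7.55, Il1rn at 6.59 and Il18bp at 5.49 CPM per kb. Each of these 4 overlapped its neighbour in the order. Next came Il1r1 at 3.64 CPM per kb, Il33 at 1.70, Il1a at 1.62, Il1r2 at 0.922, Il18rap at 0.525 and Il1rl1 at 0.240 CPM per kb. Il1r1 was separated from both its neighbours in that order, while Il33 overlapped Il1a, and Il18rap overlapped Il1r2 and Il1rl1.

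In luteolin tumours Il1b had 84.7 CPM per kb (42.4 to 122) and Il1rn 24.1 CPM per kb (21.7 to 28.4). These 2 were separated from each other and from the rest. The genes below them, down to Il18rap, overlapped neighbour by neighbour, with Il1r1 at 9.52, Il33 at 9.04, Il18bp at 7.63, Il1rap at 6.54, Il1r2 at 6.17, Il1a at 4.05 and Il18rap at 3.18 CPM per kb. Il1rl1 stayed last at 1.54 CPM per kb and below all others. Il1rap thus went from rank 2 to rank 6 with little change of its own level.

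Agonists and inhibitors were set against each other as ratios of counts within a library, which need no scaling between libraries. With 3 libraries against 3 the exact two-sided permutation test cannot give a p under 0.1. The only ratio of the 4 whose groups did not overlap was that of the decoy Il1r2 to the signalling receptor Il1r1. It was 0.059, 0.071 and 0.056 in control and 0.135, 0.189 and 0.130 in luteolin libraries, so that the decoy gained on the receptor by 1.24 on the log2 scale (exact permutation p = 0.1, the smallest possible). Both transcripts rose, and the decoy still had fewer counts than the receptor in all 6 libraries.

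The antagonist did not keep pace with the agonists in the mean, but the libraries overlapped. Il1rn over Il1a plus Il1b was 0.644, 1.05 and 1.22 in control and 0.412, 0.448 and 0.856 in luteolin libraries. The mean log2 ratio was lower by 0.79 in luteolin (exact permutation p = 0.2), and luteolin replicate 3 lay among the controls. For Il33 over Il1rl1 the ratios were 1.01, 3.67 and 5.95 in control and 3.05, 3.84 and 1.53 in luteolin libraries. The luteolin range lay within the control range, with a log2 difference of -0.08 (exact permutation p = 0.9) that changed sign with control replicate 2, control replicate 3 or luteolin replicate 3 left out (0.11, 0.45 and 0.30).

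Il18bp over its cytokine Il18 was 8.45, 10.5 and 3.81 in control and 14.9, 7.85 and 14.5 in luteolin libraries. The binding protein had more counts than the cytokine throughout, and the difference of 0.77 on the log2 scale was within the spread (exact permutation p = 0.3). Il18 itself was low, at 121, 84 and 244 counts in control and 79, 247 and 75 counts in luteolin libraries, with a log2 fold change of -0.33 that did not pass the test.

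**Figure D3:**
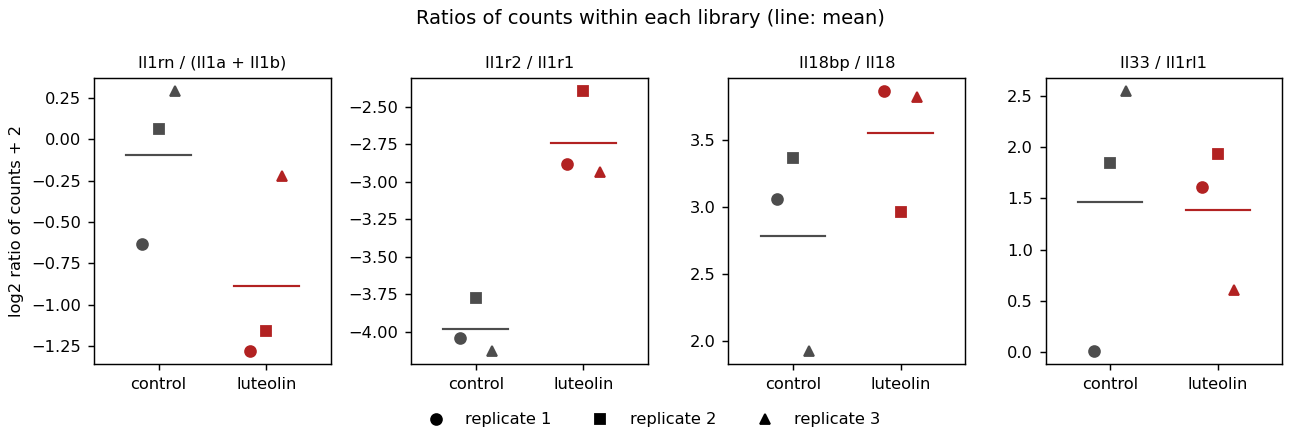
Log2 ratio of 2 transcripts, or of Il1rn to the sum of Il1a and Il1b (vertical axes, 2 counts added to each term), in each control (grey) and luteolin (red) library, with group means as lines. The Il1r2 to Il1r1 panel is the one where the luteolin points, between -2.94 and -2.40, all lie above the control points, between -4.13 and -3.78.

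Of the members, 4 lie in 1 gene cluster on mouse chromosome 1, whose protein-coding genes follow in RefSeq (GRCm38.p6) as Il1r2, Il1r1, Il1rl2, Il1rl1, Il18r1 and Il18rap. All 6 were up-regulated. The 2 that are not members are Il1rl2, the IL-36 receptor, with a log2 fold change of 2.27 (1.19 without luteolin replicate 2), and Il18r1, the cytokine-binding chain for IL-18, with 2.49. Il18r1 had 71, 117 and 115 counts in control and 432, 928 and 492 counts in luteolin libraries, with an adjusted p of 0.0429 in edgeR's quasi-likelihood test, and was singled out after its values were seen. Il1rap lies apart on chromosome 16, and Il1a, Il1b and Il1rn are on chromosome 2.

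Of the other ligands and receptors of the family, 5 of 11 could be tested and 3 were up-regulated, namely Il1rl2, Il18r1 and Il36g. The last, an epithelial IL-36 agonist, had 3, 10 and 36 counts in control and 523, 1934 and 125 counts in luteolin libraries, a log2 fold change of 5.47 (4.40 without luteolin replicate 2). The IL-36 antagonist Il36rn, named after its values were seen, was not tested and had 0 counts in every control, 187 in luteolin replicate 1, 2762 in luteolin replicate 2 and 0 in luteolin replicate 3. The order of the luteolin libraries in these counts was that of the keratinocyte sums given above. The part of keratinocytes in them was not tested. Sigirr, an inhibitory receptor, had 52.2 ± 8.06 CPM in control and 48.3 ± 6.20 CPM in luteolin libraries (SD, n = 3 each).

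Inflammasome caspases cleave IL-1 beta and IL-18 for release. Of 13 tested genes of inflammasomes and of proteases that release IL-1 family cytokines, 4 were up-regulated and 0 down-regulated. The median log2 fold change was 0.85. The 4, named after their values were seen, were the caspases Casp1 (1.87 on the log2 scale) and Casp4 (1.84), the pore-former Gsdmd (1.59) and the sensor Mefv (1.77). None had an adjusted p under 0.05 in edgeR's quasi-likelihood test on all 6 libraries. Without luteolin replicate 2 Gsdmd had 0.0389 in the same test. The 3 most abundant genes of the list did not pass, with log2 fold changes of 0.03 for Aim2, 0.03 for Panx1 and 0.52 for P2rx7.

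Most of the signalling chain below the receptors did not pass the test. Among 16 adaptors, kinases and inhibitors 2 were up-regulated, close to the share of 11.3% over all tested genes. The 2 were named after their values were seen. They were Irak3, a brake on the pathway (log2 fold change 1.73), and the kinase Map3k8 (1.11), and the median log2 fold change was 0.08. Map3k8 was at 0.68 without luteolin replicate 2 and then did not pass, which left 1 of 16, against 7.52% of tested genes. The most abundant genes of this list had values near 0, with 0.07 for Tab2, 0.22 for Tollip and -0.30 for Map3k7.

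Most of the genes listed as induced by IL-1 rose. Of 20 tested, 14 were up-regulated and 0 down-regulated, with a median log2 fold change of 1.62 and 4 adjusted p-values under 0.05 in edgeR. Saa3, an acute-phase protein, was at 4.54 ± 1.78 CPM in control and 203 ± 135 CPM in luteolin libraries (SD, n = 3 each). This was a difference of 5.48 on the log2 scale, with an adjusted p of 0.0332 in edgeR's quasi-likelihood test. Mmp3, a matrix protease of stromal cells, rose from 5.12 ± 3.47 to 154 ± 62.1 CPM (SD, n = 3 each), and Cxcl2, a neutrophil attractant, from 1.72 ± 0.628 to 21.6 ± 15.7 CPM. Cxcl5 (5.05 on the log2 scale), Lcn2 (4.72, and 3.38 without luteolin replicate 2), Ptgs2 (2.68) and Il6 (2.56) also passed the threshold of the study. All of these but Saa3 were named after their values were seen. Nfkbia (0.36) and Ptges (-0.02) did not pass, nor did Cxcl1 (0.87), Ccl20 (1.05), Csf2 (1.12) and Nfkbiz (0.67), again named after their values were seen. Other cytokines and microbial products induce these genes too, and their source was not measured.

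The type 2 genes that stand downstream of IL-33 were mixed. Of 14 tested, 4 were up-regulated and 1 was down-regulated, with a median log2 fold change of 0.95. Those called, named after their values were seen, were the transcription factors Gata3 (log2 fold change 3.26) and Rora (2.66), the cytokine Il13 (2.91), the receptor Il9r (3.07) and, downward, the chemokine Ccl17 (-1.82). Gata3 is also a keratinocyte and T cell gene, and its counts were 366, 5772 and 352 in luteolin replicates 1, 2 and 3. Without luteolin replicate 2 the log2 fold change was 1.05 for Gata3, 1.58 for Rora and -2.51 for Ccl17, and Il13, at 2.32, no longer passed. Arg1 (0.69) and Ccl24 (-0.61) did not pass, nor did Chil3 (3.31), whose mean of 200.1 CPM in luteolin came from luteolin replicate 3 and whose log2 fold change was -1.02 without it. Chil3 passed the threshold without luteolin replicate 2 (3.91). So did Arg1, at 1.05 with an adjusted p of 0.0317 in edgeR's quasi-likelihood test.

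**Figure D4:**
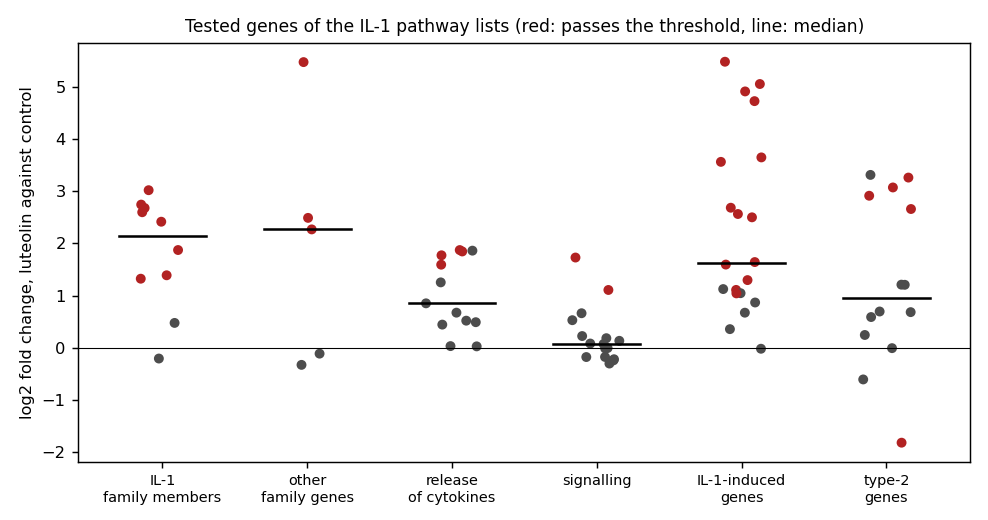
Log2 fold change, luteolin against control (vertical axis), of each tested gene in the IL-1 family and in the 5 pathway lists, with the list median as a line and genes past the threshold of the study in red. The IL-1-induced genes reach 5.48 on the log2 scale, the signalling genes have a median of 0.08 with 2 in red, and 1 type 2 gene lies in red below 0.

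Over the 5 lists together 27 of 68 tested genes were up-regulated and 1 was down-regulated, with 5 adjusted p-values under 0.05 in edgeR, which may be read beside the 11.3% and 1.34% of all genes given above. The lists were written with earlier results of these data known, and their counts are a description.

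Markers of several cell types that carry IL-1 family genes moved with the treatment, and in whole tumour tissue more cells of a type cannot be told apart from more RNA per cell. The sum of 9 neutrophil markers was 21.4, 23.1 and 25.8 CPM in control and 219, 233 and 103 CPM in luteolin libraries. This was a 7.89-fold ratio of means, with 7 of 9 genes up-regulated. Luteolin replicate 3 was the lowest of its group here, as it was for Il1b, Il1rn, Il1r1, Il1r2, Il33 and Il18bp. It was not the lowest for Il1a, Il1rap, Il1rl1 or Il18rap. The mast cell, fibroblast, endothelial, keratinocyte and hepatoma sums were also lowest there, so this was not particular to neutrophil markers. S100a9, an abundant neutrophil protein, had a log2 fold change of 4.70, Csf3r, the granulocyte growth factor receptor, 2.25 and Hdc, the histamine-forming enzyme, 3.96. The 2 genes of the list that did not pass, named after their values were seen, were Retnlg at 0.43 and Ly6g, a defining neutrophil surface marker, at -0.57. Ly6g had 13, 36 and 12 counts in control and 0, 9 and 33 counts in luteolin libraries. The 9 mast cell markers summed to 14.5, 20.5 and 14.5 CPM in control and 99.1, 130 and 47.8 CPM in luteolin libraries, with 7 of 9 up-regulated, among them the proteases Tpsab1 (2.93), Mcpt4 (3.06) and Tpsb2 (3.14). Ly6g in luteolin replicate 1 was the only value at 0 among the markers of these 2 types. Il1rl1, which mast cells carry, was lowest in luteolin replicate 2, where the mast cell sum was highest.

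T and natural killer cell markers were up-regulated in 9 of 9, with sums of 12.1, 15.0 and 15.1 CPM in control and 48.8, 91.5 and 50.9 CPM in luteolin libraries. Luteolin replicate 2 was the highest for this sum and for Il18rap. It was also the highest for the other marker sums but that of hepatoma, and for Il1r1, Il1r2 and Il18bp. Il1a, Il1b, Il1rn, Il33 and Il1rl1 were highest in luteolin replicate 1. Cd8a and Cd4, the co-receptors of cytotoxic and helper T cells, had log2 fold changes of 2.51 and 1.63, and Cd3g, a chain of the T cell receptor complex, 2.33. The macrophage markers began higher and differed less, at 1153, 980 and 1026 CPM in control and 1531, 2362 and 1851 CPM in luteolin libraries. Of these markers 3 of 9 were up-regulated. The log2 fold changes were 0.80 for C1qa, 0.91 for C1qc and 0.74 for Mrc1. Each had an unadjusted p under 0.05 in edgeR's quasi-likelihood test but fell short of a 2-fold change. Without luteolin replicate 2 Mrc1 passed, at 1.01, and the count was 4 of 9. The part of these cells in the differences of the IL-1 family was not tested.

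Fibroblast markers summed to 1415 to 1577 CPM in control and to 4111, 5035 and 2029 CPM in luteolin libraries. Of these markers 5 of 8 were up-regulated, among them the collagens Col3a1 (log2 fold change 1.23), Col1a1 (1.41) and Col1a2 (1.06). Without luteolin replicate 2 the count was 4 of 8, and Col1a2, at 0.78, no longer passed. Endothelial markers summed to 114 to 129 CPM in control and to 193, 317 and 121 CPM in luteolin libraries, with 2 of 8 up-regulated and 0 of 8 without luteolin replicate 2. Pecam1, an adhesion molecule between endothelial cells, was at 1.05, while Cdh5 (0.67) and Egfl7 (0.11) did not pass. Among the luteolin libraries, replicate 2 lay above 1 and 1 above 3 for Il1r1, Il1r2 and Il18bp. The fibroblast, endothelial, neutrophil, mast cell and keratinocyte sums had the same order. Of the keratinocyte markers, 8 of 8 tested were up-regulated and 7 of 10 were at 0 in every control, including Krt5 and Krt14. Krt10 had 273, 277 and 208 counts in control and 3744, 168210 and 272 counts in luteolin libraries. Of the hepatoma markers, 1 of 7 tested was up-regulated, beside 11.3% of all tested genes. It was the oncofetal proteoglycan Gpc3 (2.73). Alb was uneven in both groups, at 214, 3905 and 56 counts in control and 8118, 2175 and 2040 counts in luteolin libraries.

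**Figure D5:**
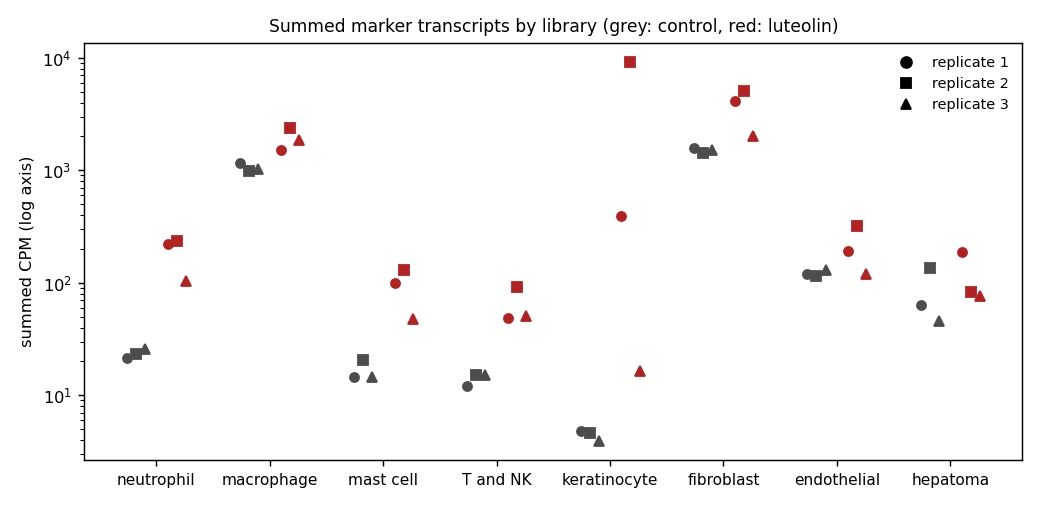
Summed CPM (logarithmic vertical axis) of 8 marker lists in each control (grey) and luteolin (red) library. The neutrophil, mast cell, T and NK, macrophage and fibroblast sums are higher in all 3 luteolin libraries, the keratinocyte sum is spread from 16.4 to 9254 CPM among the luteolin libraries, and the hepatoma sums overlap.

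Genes with the most similar pattern were named by the mean absolute difference of centred log2 CPM over the 6 libraries, among 13275 genes with a mean of at least 1 CPM. For Il1b they were the mast cell tryptase Tpsab1 (0.23) and the chemokines Ccl3 (0.27) and Ccl4 (0.27). For Il1rn they were 3 genes known as targets of interferon, Gbp4 (0.0847), Irgm1 (0.103) and Ifi47 (0.105). Gbp4, at 23.8, 45.2 and 48.6 CPM in control and 182, 139 and 141 CPM in luteolin libraries, shared with Il1rn the low control replicate 1 and the high luteolin replicate 1. For Il1rl1 they were Tnfrsf11b (0.17), the decoy receptor of RANKL, Wnt5a (0.18) and the niacin receptor Hcar2 (0.21). For Il1r1 they were Stc1 (0.0816), Rhoj (0.0843) and Tbx15 (0.102), the first a secreted glycoprotein and the second a GTPase of endothelial cells. Each likeness is over 6 libraries that share the group difference, so it is a description.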

How the data were processed

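Total RNA of H22 tumours of vehicle-treated and luteolin-treated mice (200 mg/kg) was sequenced, with 3 libraries per group, and 0 columns were left out. The authors deposited unscaled whole-number estimated counts per gene symbol. The submitters' processing notes name bcl2fastq 2.0, HISAT2, StringTie, DESeq2, mm39 and rn6, without saying how the genomes were used. Multiples of 4 made up 44.79% of values between 1 and 40 (25% if evenly spread), so that 1 count need not be 1 read. Positions in the genome were therefore not taken from the counts. RefSeq windows are on GRCm38.p6. Lengths, GC contents and exon overlaps come from GENCODE M21.

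edgeR 4.0.16 in R 4.3.3 compared the counts by its quasi-likelihood test without covariates, after TMM scaling and the filterByExpr filter, over all 14963 tested genes, and the code was tested on simulated data. CPM are counts per 1000000 of the TMM-scaled library total. The members and lists were chosen with earlier results of these data known. Besides the members, the text names the 3 tested genes of highest mean in each list and Il18, with others said to be named after their values were seen, and the 3 genes most like Il1b, Il1rn, Il1rl1 and Il1r1. Alternatives were DESeq2 1.42.0, voom of limma 3.58.1 with sample quality weights, RLE and upper-quartile normalization, no filter, a minimum of 10 counts, a replicate block, 0.5 in place of 2 added counts for ratios, offsets for GC content and length (14635 genes), each library left out and, chosen after seeing the data, values divided by 4.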

Additional observations from a re-analysis of the deposited data

How the results depend on the processing

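Of 150 recomputed member fold changes, 147 kept direction and side of the threshold of the study. The other 3 were Il1a with 1 library left out. The count of up-regulated members was 7 to 8 with a library left out and 8 elsewhere. The count with an adjusted p under 0.05, 3 in edgeR's quasi-likelihood test, was 8 with DESeq2, 9 with voom, 6 with GC and length offsets, 1 with the replicate block (Il1b) and 0 to 4 with a library left out. For the 5 pathway lists this count, 5 in edgeR, was 25 with DESeq2, 29 with voom, 14 with the offsets, 0 with the replicate block and 0 to 8 with a library left out, and 8 without luteolin replicate 2. Over all 14963 tested genes the replicate block called only 34 higher and 1 lower by this rule. The cause of these moves was not tested. Deviations of same-numbered libraries from their group means correlated at -0.20, -0.09 and 0.06, and those of differently numbered libraries at -0.12 to 0.20. Deviations from a mean of 3 libraries cancel out within a group, so these values cannot tell whether replicate numbers paired the samples. The replicate block left the threshold count at 8 members and 25 pathway genes (27 without it). For the ratios the block gives p no smaller than 0.25. The Il33 to Il1rl1 difference ran from -0.81 to 0.45 with a library left out. The offsets moved the median log2 fold change of all genes to -0.24, and relative to 0 they gave -0.068 for Aim2, -0.18 for Panx1, -0.13 for Tab2 and -0.028 for Tollip. Ptges was at 0.024 with upper-quartile normalization. With a library left out, log2 fold changes ran from -0.28 to 0.39 for Aim2, from -0.081 to 0.15 for Panx1, from -0.048 to 0.17 for Tab2, from -0.60 to 0.065 for Map3k7, from -0.14 to 0.12 for Ptges, from -0.86 to 0.25 for Il18 and from -1.02 to 4.20 for Chil3. Calls at the threshold of the study over all genes were 1687 higher and 227 lower in edgeR, 2004 and 282 with DESeq2, 1752 and 498 with voom and 1387 and 463 with the offsets. At an adjusted p under 0.05 they were 200 and 28 in edgeR, 1543 and 415 with DESeq2, 1886 and 1311 with voom and 557 and 305 with the offsets. Whether a marker list reflects cells or RNA per cell cannot be told from these libraries, and 3 libraries per group limit the precision of every interval.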
